A study of Mus musculus with 8 samples.

Results

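The transcripts described here encode 30 nuclear-encoded subunits of oxidative phosphorylation complexes II to V, with cytochrome c, in inguinal white adipose tissue of the mouse, a fat depot under the skin of the groin. They were picked by gene symbol as subunits common to most tissues, by a rule that uses no measured value. The choice was nevertheless made with earlier results of these data known. All 30 were found among the 22869 genes of the deposited table, and all 30 passed the filter on low counts. RNA-seq of polyadenylated RNA compared 4 wild-type libraries with 4 libraries from mice carrying Fabp4-Ebf2, a transgene named Ap2-Ebf2 in the file header. Both groups were of mixed background strain, about 6 weeks old, and kept on normal chow at room temperature. Lymph nodes had been removed from the fat. EBF2 is a transcription factor of brown and beige adipocytes. The Fabp4 (aP2) promoter is active in adipocytes and is also known to be active in some macrophages and endothelial cells. How many founder lines were used is not given in the sources used here, nor whether each library came from its own animal; p-values therefore reflect only how far these libraries vary, which may be technical.

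The respiratory chain passes electrons from fuel to oxygen and uses the energy to pump protons out of the mitochondrial matrix. Complex II, succinate dehydrogenase, feeds in electrons from the tricarboxylic acid cycle, complex III hands them to cytochrome c, and complex IV passes them to oxygen. Complex V, the ATP synthase, lets protons back in to make ATP. Brown and beige adipocytes are rich in respiratory chain but, with UCP1 as a second proton path, are known in mouse for a low content of ATP synthase relative to the chain.

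The libraries held 16.9 to 24.7 M reads over these genes. A level in CPM is a gene's count scaled by TMM to a library of 1 M reads. Ebf2 had 37.0, 14.9, 30.3 and 29.4 CPM in wild-type replicates 1 to 4 and 499, 231, 575 and 447 CPM in Fabp4-Ebf2 replicates 1 to 4, a log2 fold change of 3.98 (SE 0.35, adjusted p from edgeR = 0.00177). All Fabp4-Ebf2 libraries were above all wild-type ones, as their labels imply. Ucp1, the uncoupling protein of brown and beige fat, had 98.5, 9.26, 12.2 and 20.3 CPM across the wild types, then 1641, 348, 1873 and 719 CPM in Fabp4-Ebf2, a log2 fold change of 5.03 (SE 0.91, adjusted p from edgeR = 0.0213). Reads of the transgene and the endogenous gene are not separated. Fabp4-Ebf2 replicate 3 stood apart. It had the highest CPM of its group for all 30 subunits, and also the most Ebf2 and the most Ucp1. Fabp4-Ebf2 replicate 2, with the least Ebf2 and the least Ucp1, was lowest of its group for 18 of the 30. The order did not hold throughout. Fabp4-Ebf2 replicate 1 had more Ebf2 and Ucp1 than replicate 4, yet was lowest for 7 subunits and replicate 4 for 5. Adipocyte markers, among them Adipoq, Plin1, Fabp4 and Cfd, summed to 32978 to 42948 CPM among wild types, then 25876 to 29004 CPM in Fabp4-Ebf2. The tissue thus carried the markers its label implies. Their sum was lower in Fabp4-Ebf2, without overlap, but its largest parts were Cfd and Fabp4. Levels of Fabp4 overlapped, at 9379 to 12576 CPM in wild type and 7551 to 11951.5 CPM in Fabp4-Ebf2. Of the 10 markers 3, Plin1 (0.09), Lipe (0.12) and Pparg (0.29), had log2 fold changes above 0 and the others below. Cfd had the largest drop in mean CPM, from 14009 ± 1342 to 6864 ± 1847. Its log2 fold change of -1.03 (SE 0.24, adjusted p from edgeR = 0.0516) did not pass.

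Most of these transcripts of complexes II to V were more abundant in Fabp4-Ebf2 fat. Of the 30 subunits 22 rose, 1.56- to 2.24-fold, 0 fell and 8 did not pass the test, which was the quasi-likelihood test of edgeR, adjusted by Benjamini-Hochberg over 15002 genes, at 0.05. Across all genes 2.8% were called higher and 0.62% lower. The median log2 fold change was 0.71 over the 30 subunits and -0.01 over all tested genes. In 26 of the 30 the groups did not overlap, every Fabp4-Ebf2 library lying above every wild-type library, against 7.35% of all tested genes. Summed over the 30, the subunits took 0.418 to 0.479% of normalised reads in wild type and 0.693 to 1.06% in Fabp4-Ebf2. For each of the 26 subunits without overlap, a two-sided exact permutation test on log2 CPM gave p = 0.0286, the smallest that 70 arrangements of 8 libraries allow. Lack of overlap fixes that p in advance, so it restates the count of 26 and is no further support.

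**Figure D1:**
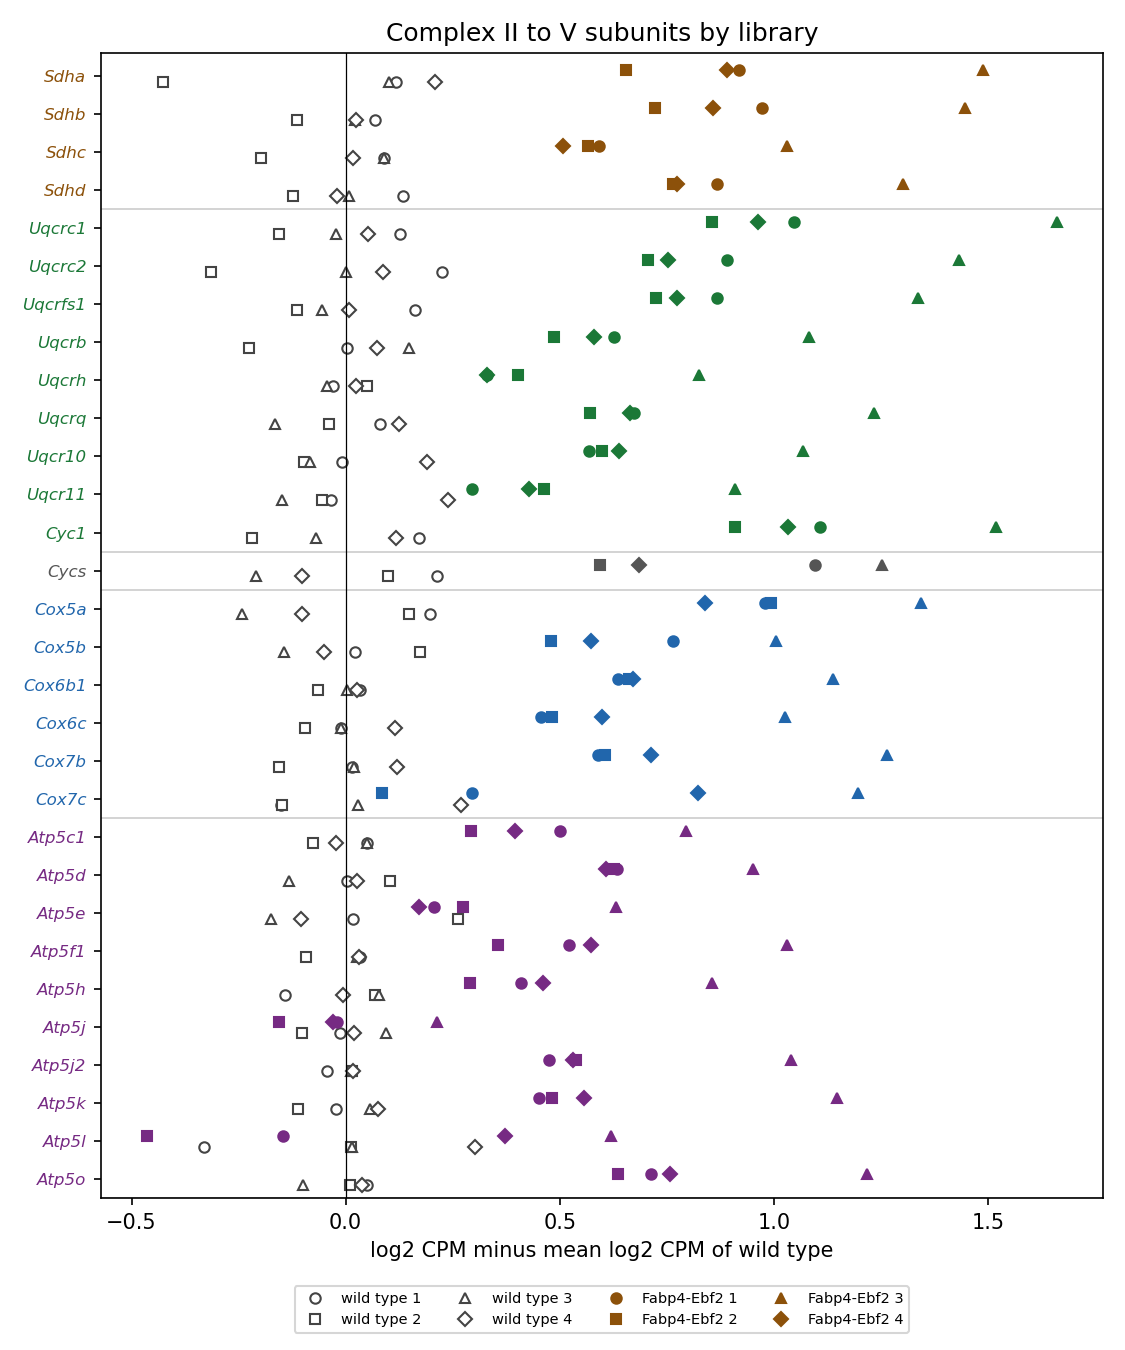
Each row is 1 subunit gene, coloured by complex; the horizontal axis is log2 CPM of each library minus the wild-type mean, with open symbols for the 4 wild-type and filled symbols for the 4 Fabp4-Ebf2 libraries. The triangles of Fabp4-Ebf2 replicate 3 are the rightmost filled symbols in all 30 rows, and the groups overlap in 4 rows, Cox7c, Atp5e, Atp5j and Atp5l.

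The size of the difference did not rest on 1 library, whereas the number of calls did. Without Fabp4-Ebf2 replicate 3 the median log2 fold change was 0.60 and 20 subunits rose, with the calls of Sdha and Cycs lost. Over the other 7 single omissions the median ran from 0.70 to 0.77. The count of subunits that rose was 6 without wild type replicate 3, 7 without wild type replicate 4, 11 without wild type replicate 1 and 12 without Fabp4-Ebf2 replicate 1. Over the whole table those fits called 88, 98, 248 and 140 genes higher, where all 8 libraries gave 420. Without Fabp4-Ebf2 replicate 2, the count was 24 subunits and 662 genes were called higher. Sdhb, Sdhd, Cyc1, Cox5a, Atp5d and Atp5o passed without each single library in turn and under all other alternatives tried.

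Over the chosen genes of each complex, the median log2 fold change was 0.97 for complex II, 0.81 for complex III, 0.75 for complex IV and 0.58 for complex V. All 4 subunits of complex II rose, as did 7 of 9 of complex III, cytochrome c, 5 of 6 of complex IV and 5 of 10 of complex V. The mean of complex V over its 10 genes was 6.39 ± 0.03 log2 CPM in wild type and 6.88 ± 0.25 log2 CPM in Fabp4-Ebf2 (SD, n = 4 each). That of complex II was 7.93 ± 0.14 and 8.83 ± 0.29 log2 CPM. In each of the 4 Fabp4-Ebf2 libraries the mean of these 10 complex V genes stood less far above its wild-type mean than the means of the chosen genes of the other complexes. Counts of some chosen genes are uncertain for reasons given further on. They are Uqcrb in complex III, Cycs, Cox5b and Cox7c in complex IV, and Atp5l, Atp5h and Atp5j in complex V. The 10 genes of complex V leave out the subunits of the catalytic head. Those, named after their values were seen, rose: Atp5a1 (α) from 972 ± 70.6 to 1757 ± 335 CPM, or 0.85 (SE 0.16, adjusted p from edgeR = 0.0222) on the log2 scale, and Atp5b (β) from 1715 ± 203 to 3482 ± 950.2 CPM, or 1.02 (SE 0.21, adjusted p from edgeR = 0.0329) on the log2 scale. The other listed complex V genes outside the 10 did not pass. They were the c-subunit genes Atp5g1 (-0.51, SE 0.18), Atp5g2 (-0.10, SE 0.21) and Atp5g3 (-0.29, SE 0.08), with Atpif1 (-0.29, SE 0.17) and Usmg5 (0.71, SE 0.22). For Atp5g1 and Atp5g3 (adjusted p from edgeR = 0.192 and 0.0965) every Fabp4-Ebf2 library lay below every wild-type library. The share of all tested genes that did so was not counted, so how unusual this is cannot be told. Outside the 10, Atp5a1 and Atp5b thus rose, and no listed ATP synthase gene was called lower. Of those with negative values, Atp5g1 had only 79 to 287 reads per library and Atp5g2 only 29 to 48. The 10 genes do not describe ATP synthase transcripts as a whole. In complex IV, outside the chosen 6, Cox6a1 (0.85, SE 0.14), Ndufa4 (0.63, SE 0.14) and Cox4i1 (0.55, SE 0.11) rose. Cox7a2 (0.52, SE 0.13) and Cox8a (0.46, SE 0.12) did not pass. Of these, Cox6a1 lay above the median log2 fold change of the 6 and the others lay under it. Cox7a1 (3.58) and Cox8b (1.77) rose by more, and Cox4i2, Cox6a2, Cox6b2 and Cox7a2l did not pass. Since the subunits were chosen with results of these data known, these differences between complexes are given as descriptions, with no test.

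**Figure D2:**
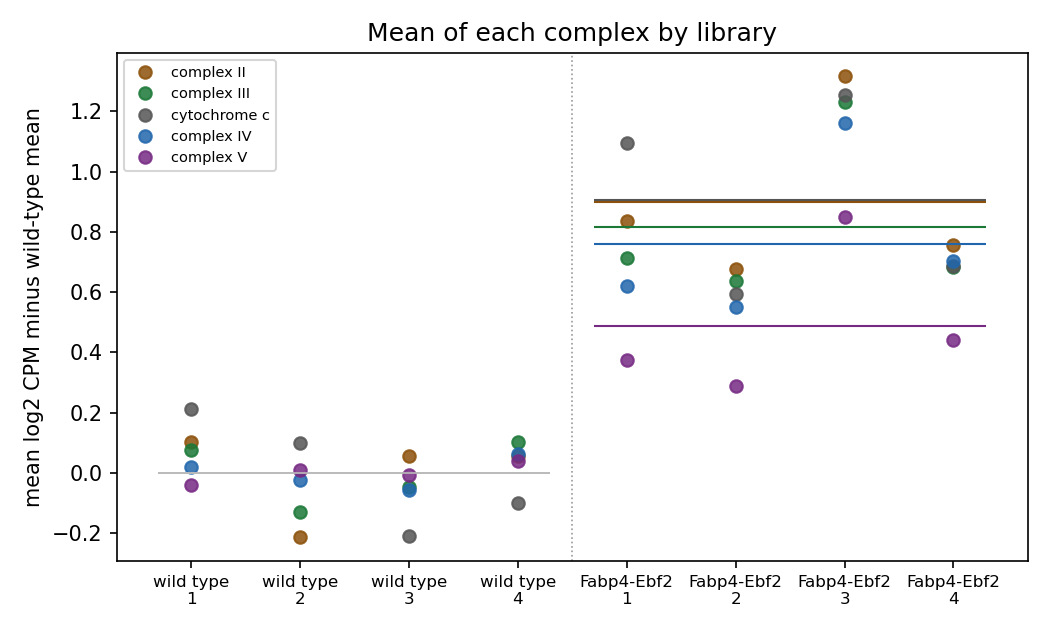
Points give, for each library, the mean log2 CPM of the chosen genes of a complex minus its mean in wild type; horizontal lines mark the Fabp4-Ebf2 mean of each complex. The complex V line lies at 0.49, below complex IV at 0.76, complex III at 0.82, complex II at 0.90 and cytochrome c at 0.91.

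Some markers of other cells moved with genotype. The skeletal muscle markers summed to 498 to 1435 CPM among wild types, then 63.6 to 447 CPM in Fabp4-Ebf2. Wild type replicate 2, at 498 CPM, and Fabp4-Ebf2 replicate 2, at 447 CPM, were the closest across the groups. Of 19 tested muscle markers 1 fell (Casq1) and 0 rose. Their median log2 fold change was -2.01. Of 10 adipocyte markers 1 fell (Retn) and 0 rose, the median being -0.29. Of 11 brown and beige adipocyte markers 7 rose, their sum going from 170.0 to 443 CPM in wild type to 1273 to 4049 CPM. The 8 macrophage, 8 lymphocyte, 6 endothelial, 6 progenitor and 5 erythrocyte markers had 0 members past edgeR's test in either direction, and their summed levels overlapped between the groups. The median log2 fold changes of these lists were 0.03, -0.34, -0.23, -0.30 and -0.64, in that order. Hba-a1 and Hba-a2 had identical counts, as did Hbb-b1 and Hbb-b2, so the erythrocyte markers are fewer than listed. In bulk tissue, fewer cells of a type and less RNA per cell cannot be told apart, and the part of cell composition in the subunit differences was not tested.

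In complex II all 4 subunits rose, the catalytic ones 2.00-fold (Sdha) and 2.03-fold (Sdhb). Sdha, the flavoprotein that oxidises succinate, had 688, 472, 680.0 and 732 CPM in wild-type replicates 1 to 4 and 1199.5, 999, 1779 and 1175 CPM in Fabp4-Ebf2 replicates 1 to 4. It was the most abundant of the 30 in reads, with a log2 fold change of 1.00 (SE 0.21, adjusted p from edgeR = 0.0338). Sdhb carries the iron-sulphur clusters that lead electrons from the flavin to the membrane. It had 219, 193, 212 and 212 CPM across the wild types, then 409, 345, 569 and 379 CPM in Fabp4-Ebf2. The wild-type libraries spanned a narrow range, and the lowest Fabp4-Ebf2 library, replicate 2, was still well above them. The log2 fold change of Sdhb, the highest of the complex, was 1.02 (SE 0.15, adjusted p from edgeR = 0.0120). Sdhc and Sdhd anchor the enzyme in the inner membrane and bind its haem and ubiquinone. Sdhd rose 1.92-fold, from 169 ± 12.5 to 325 ± 61.7 CPM, and Sdhc had the lowest log2 fold change of the complex at 0.68 (SE 0.13, adjusted p from edgeR = 0.0259). Sdhc had 169, 139, 169 and 161 CPM across the wild types, then 239.7, 236, 325 and 226 CPM in Fabp4-Ebf2, without overlap. The ratio of Sdhb to Sdhc reads was 1.31 ± 0.0586 in wild type and 1.65 ± 0.128 in Fabp4-Ebf2 (n = 4 each), as a description of the pair chosen for its extremes.

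Complex III held the highest fold changes of the 30, in its large subunits. Uqcrc1, a core protein that faces the matrix, had 300.1, 247, 271 and 285 CPM across the wild types, then 568, 498, 869.7 and 536 CPM in Fabp4-Ebf2. The groups were far apart, with replicate 3 again the highest. Its log2 fold change was 1.16 (SE 0.18, adjusted p from edgeR = 0.0130). Cyc1, cytochrome c1, which passes electrons to cytochrome c, followed at 1.15 (SE 0.15, adjusted p from edgeR = 0.00805), from 226 ± 27.5 to 503 ± 97.7 CPM. The second core protein gene Uqcrc2 rose 1.95-fold, and Uqcrfs1, the Rieske iron-sulphur protein, rose 1.92-fold. Reads of Uqcrc2 may be shared with Pdzd9, which overlaps it in RefSeq genes of GRCm38, since the use of strand in counting is not given in the sources used here.

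The small subunits of complex III rose less or did not pass. Uqcrq, which helps to hold the cytochrome b core, rose 1.75-fold and overlaps Gdf9. Uqcr10 and Uqcrb rose 1.66-fold and 1.63-fold. Uqcrh, the acidic hinge protein at the contact between cytochrome c1 and cytochrome c, had 190.1, 201, 188 and 198 CPM across the wild types, then 244, 257, 344 and 244 CPM in Fabp4-Ebf2. No libraries overlapped, but replicate 3 stood far above the other 3 Fabp4-Ebf2 libraries. With a log2 fold change of 0.49 (SE 0.12, adjusted p from edgeR = 0.0671) it did not pass. Uqcr11 had 55.0, 54.2, 50.9 and 66.5 CPM across the wild types, then 69.2, 77.7, 106 and 75.9 CPM in Fabp4-Ebf2, also without overlap, and its log2 fold change of 0.54 (SE 0.14, adjusted p from edgeR = 0.0761) did not pass either. The ratio of Uqcrc1 to Uqcrh reads went from 1.42 ± 0.144 in wild type to 2.25 ± 0.247 in Fabp4-Ebf2 (n = 4 each), for a pair chosen by its extremes.

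Cycs encodes the somatic cytochrome c that shuttles between complexes III and IV. It had 7.25, 6.70, 5.41 and 5.83 CPM across the wild types, then 13.4, 9.43, 14.9 and 10.1 CPM in Fabp4-Ebf2, all 4 of the latter above the former. The log2 fold change was 0.92 (SE 0.18, adjusted p from edgeR = 0.0254). This level rested on 98 to 283 reads per library, and the shared sequence described further on bears on it.

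In complex IV 5 of the 6 subunits rose, 1.58- to 2.06-fold, and Cox7c did not pass. Cox5a, a matrix-side subunit, had 157, 152, 116 and 128 CPM across the wild types, then 269.9, 273, 347 and 245 CPM in Fabp4-Ebf2. All 4 Fabp4-Ebf2 libraries lay well above the wild-type ones. Its log2 fold change, the highest of the complex, was 1.04 (SE 0.14, adjusted p from edgeR = 0.00805). Cox5b, the zinc-binding matrix-side subunit, rose 1.64-fold from 15.8 ± 1.48 to 25.9 ± 4.28 CPM. Cox6b1, which faces the intermembrane space, rose 1.73-fold from 239 ± 7.41 to 414 ± 75.0 CPM. The single-span membrane subunits Cox7b and Cox6c rose 1.76-fold and 1.58-fold. Cox7c, another single-span subunit, had 8.09, 8.10, 9.16 and 10.8 CPM across the wild types, then 11.004, 9.52, 20.6 and 15.9 CPM in Fabp4-Ebf2. Fabp4-Ebf2 replicate 2 lay below wild type replicate 4, and with 154 to 388 reads per library the log2 fold change of 0.65 (SE 0.24, adjusted p from edgeR = 0.186) did not pass.

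Among the chosen genes, complex V had the widest range of log2 fold changes. In the peripheral stalk, which keeps the catalytic head from turning, Atp5o, the oligomycin sensitivity protein, had 85.5, 83.2, 77.1 and 84.7 CPM across the wild types, then 135, 128, 192 and 139 CPM in Fabp4-Ebf2. Its log2 fold change of 0.85 (SE 0.13, adjusted p from edgeR = 0.0120) was the highest of the complex. Atp5f1, the b subunit, rose 1.56-fold. Atp5h, the d subunit, had 46.5, 53.7, 54.0 and 51.0 CPM across the wild types, then 68.1, 62.6, 92.6 and 70.5 CPM in Fabp4-Ebf2. The groups did not overlap, and its log2 fold change of 0.52 (SE 0.12, adjusted p from edgeR = 0.0540) lay just outside the threshold. Atp5j, coupling factor 6 of the same stalk, had 145, 136, 156 and 148 CPM across the wild types, then 144, 131, 169.6 and 143 CPM in Fabp4-Ebf2, with the groups lying over each other. Its log2 fold change was 0.01 (SE 0.10, adjusted p from edgeR = 0.980). The ratio of Atp5o to Atp5j reads, a pair chosen by its extremes, went from 0.566 ± 0.0509 to 1.01 ± 0.0863. Atp5j was the 1 gene of the 30 with no row marked best by the authors, and it overlaps Gabpa, so its count may hold reads of that neighbour. Among the other subunits, Sdhc, Uqcr10 and Atp5l overlap long noncoding RNA genes in RefSeq, Uqcrh a pseudogene, and Cox7c and Atp5c1 small nucleolar RNA genes.

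In the central stalk, which turns inside the head, Atp5d (the δ subunit) rose 1.64-fold from 172 ± 11.5 to 282 ± 33.9 CPM and overlaps Cbarp. Atp5c1, the γ subunit that forms the shaft, had 263, 241, 263 and 250.2 CPM across the wild types, then 359.8, 311, 441 and 335 CPM in Fabp4-Ebf2. Without overlap and with a log2 fold change of 0.51 (SE 0.12, adjusted p from edgeR = 0.0521), it narrowly missed the threshold. Atp5e, the small ε subunit, had 142, 169, 125 and 131 CPM across the wild types, then 162, 170.3, 218 and 159 CPM in Fabp4-Ebf2. Wild type replicate 2 lay above Fabp4-Ebf2 replicates 1 and 4, and the log2 fold change of 0.32 (SE 0.13, adjusted p from edgeR = 0.247) did not pass. The membrane subunits e, f and g lie where ATP synthases pair into dimers. Atp5k (e) and Atp5j2 (f) rose 1.61-fold and 1.59-fold. Atp5l (g) had 2.99, 3.80, 3.80 and 4.64 CPM across the wild types, then 3.40, 2.73, 5.78 and 4.87 CPM in Fabp4-Ebf2. The groups overlapped, at 57 to 119 reads per library, and the log2 fold change was 0.14 (SE 0.25, adjusted p from edgeR = 0.801).

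**Figure D3:**
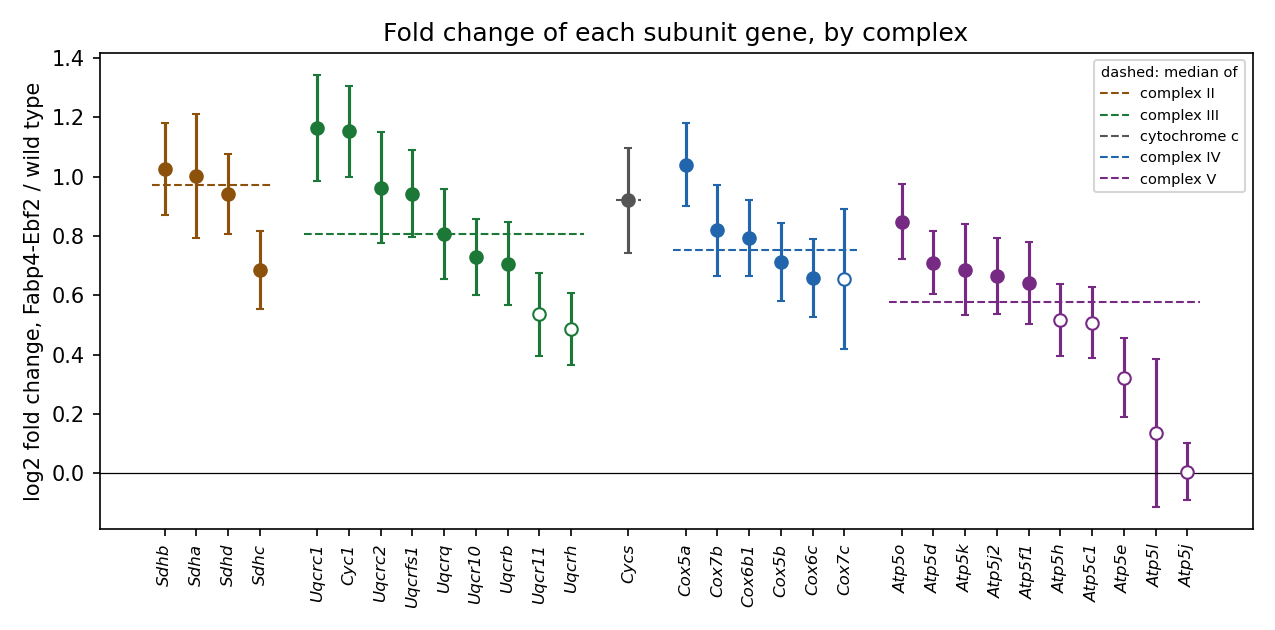
Points are log2 fold changes of Fabp4-Ebf2 over wild type with standard errors (n = 4 per group), ordered within each complex; filled points passed the test, open points did not, and dashed lines are medians. Complex V spans from 0.01 (Atp5j) to 0.85 (Atp5o), while complexes II and IV lie between 0.65 and 1.04.

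The authors' deposited table had 26 of the 30 subunits at FDR under 0.05. In the authors' deposited table Uqcrh, Uqcr11, Atp5c1 and Atp5h, not called here, had FDR of 0.0288, 0.0109, 0.0165 and 0.0165. Cox7c, Atp5e, Atp5j and Atp5l were not called in the authors' deposited table either.

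Several subunit genes have processed pseudogenes, copies of their mRNA elsewhere in the genome, and reads from shared stretches cannot be assigned to 1 place. The transcript of each subunit was matched to GENCODE M21 (GRCm38) and every 50-base stretch was looked up in the transcripts of all other annotated genes. In 12 of the 30 no stretch was shared, and in 18 at least 1 was. The highest shares were 68.5% for Atp5l, found in 13 other genes of which 12 are pseudogenes, 53.0% for Cox7c and 50.5% for Atp5h. Uqcrb followed at 43.2%, Cycs at 28.2% and Cox5b at 25.9%. Not all genes that share a stretch are annotated as pseudogenes. For Cycs 10 of 43 are, and the 1 gene sharing with Cox5b is annotated as protein-coding.

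Levels between genes are compared per kilobase of transcript, a scale that is rough for transcripts as short as these. In wild type the 12 subunits with no shared stretch lay between 89.1 and 387 CPM per kb. The 6 with more than 25% shared lay between 2.02 and 95.6 CPM per kb. The 4 lowest of all 30 were Cycs (2.02 ± 0.266), Atp5l (7.00 ± 1.24), Cox7c (16.7 ± 2.39) and Cox5b (18.2 ± 1.71), in CPM per kb as mean ± SD with n = 4, and Cox5b and Cox7c did not differ beyond their spread. The highest was Cox6b1 at 387 ± 11.98 CPM per kb, followed by Uqcrh at 355 ± 10.9 and Atp5e at 337 ± 46.2, of which the last 2 lay within their spread of each other. Across the 30 subunits, which share the same libraries, the shared percentage and the log2 level per kb had a Pearson correlation of -0.66 and a Spearman correlation of -0.59. The log2 fold change and the shared percentage had -0.40 and -0.56. Level and shared sequence did not go together in every gene. Atp5h and Uqcrb share more than Cycs and Cox5b but had 82.1 ± 5.60 and 95.6 ± 10.3 CPM per kb, and Sdhc, with 0.0961% shared, had 50.3 ± 4.56 CPM per kb. The values of all 6 genes with more than 25% shared are uncertain, the part of shared sequence in their levels was not tested, and how the authors' counting treated reads with several matches is not given in the sources used here.

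**Figure D4:**
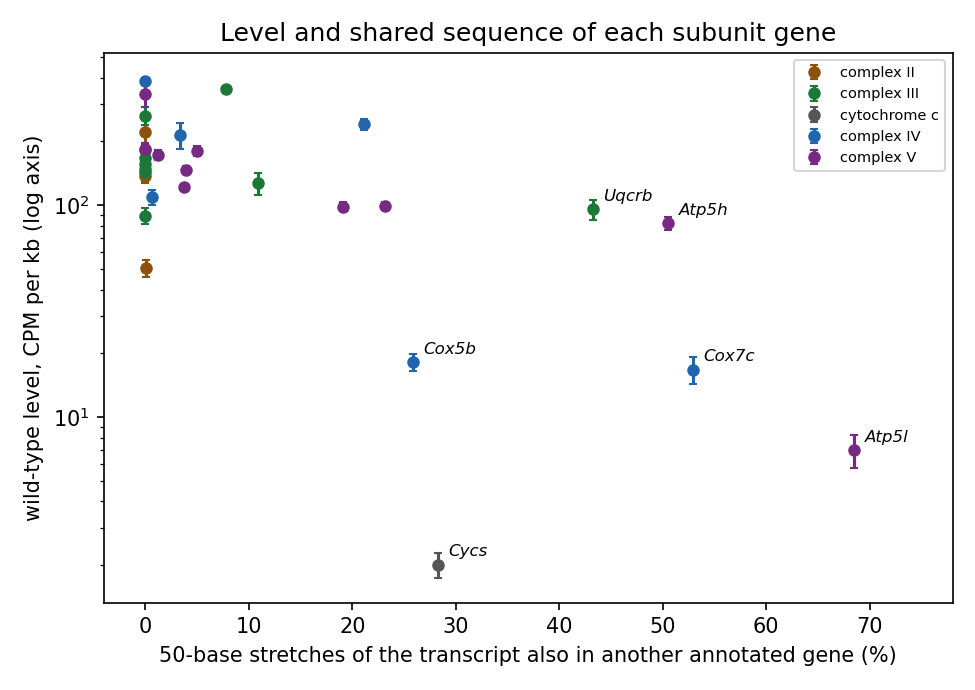
The horizontal axis is the percentage of 50-base stretches of each subunit transcript that also occur in another annotated gene, and the vertical log axis is the wild-type level in CPM per kb (mean and SD, n = 4). Atp5l, Cox7c, Cox5b and Cycs are the 4 lowest, and the genes with no shared stretch lie at 89.1 CPM per kb or above.

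Promoters are shown for 4 subunits that rose and held a match, for Sdhb and Cox5a, which rose and held none, and for Atp5j, whose log2 fold change was near 0, because genes of the chain are known to share binding sequences of NRF1, GABPA (an ETS factor), YY1 and the estrogen-related receptors (ERR). RefSeq promoter windows of GRCm38.p6, from 250 bases before to 50 bases after a start, were matched to 24 of the 30 subunits. Both strands were searched for NRF1 (a consensus of 10 bases), GABPA (CCGGAAGT), ERR (TCAAGGTCA), YY1 (AANATGGCG), EBF (10 bases) and PPAR (13 bases). Capitals mark matches to any of these, Atp5j is shown by the 1 of its 2 windows that held a match, and the sequences are written 5′ to 3′ along the gene.
Sdha (chr13:74350191-74350490, minus strand): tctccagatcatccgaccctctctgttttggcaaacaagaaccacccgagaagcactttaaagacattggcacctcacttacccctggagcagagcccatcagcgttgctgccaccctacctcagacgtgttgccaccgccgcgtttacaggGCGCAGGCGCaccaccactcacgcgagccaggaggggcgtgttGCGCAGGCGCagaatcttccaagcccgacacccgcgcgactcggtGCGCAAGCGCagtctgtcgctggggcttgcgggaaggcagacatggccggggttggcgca
Sdhd (chr9:50603800-50604099, minus strand): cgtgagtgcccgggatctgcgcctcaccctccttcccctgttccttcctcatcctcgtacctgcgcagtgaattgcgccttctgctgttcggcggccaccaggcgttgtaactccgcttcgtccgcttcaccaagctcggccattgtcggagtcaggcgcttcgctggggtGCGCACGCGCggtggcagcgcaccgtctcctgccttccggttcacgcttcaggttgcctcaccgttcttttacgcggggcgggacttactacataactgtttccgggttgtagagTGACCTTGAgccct
Uqcrc1 (chr9:108936398-108936697, plus strand): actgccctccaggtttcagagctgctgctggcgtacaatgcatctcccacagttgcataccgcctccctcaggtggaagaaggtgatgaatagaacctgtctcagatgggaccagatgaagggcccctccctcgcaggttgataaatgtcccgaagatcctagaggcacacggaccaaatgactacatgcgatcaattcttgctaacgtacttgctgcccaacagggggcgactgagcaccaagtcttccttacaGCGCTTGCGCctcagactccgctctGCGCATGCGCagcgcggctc
Atp5o (chr16:91931581-91931880, minus strand): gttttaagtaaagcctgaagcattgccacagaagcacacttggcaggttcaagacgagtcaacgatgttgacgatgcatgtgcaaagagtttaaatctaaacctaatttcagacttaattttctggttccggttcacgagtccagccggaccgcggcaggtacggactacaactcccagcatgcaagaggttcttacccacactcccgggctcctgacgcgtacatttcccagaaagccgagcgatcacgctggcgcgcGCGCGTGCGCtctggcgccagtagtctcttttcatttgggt
Sdhb (chr4:140961021-140961320, plus strand): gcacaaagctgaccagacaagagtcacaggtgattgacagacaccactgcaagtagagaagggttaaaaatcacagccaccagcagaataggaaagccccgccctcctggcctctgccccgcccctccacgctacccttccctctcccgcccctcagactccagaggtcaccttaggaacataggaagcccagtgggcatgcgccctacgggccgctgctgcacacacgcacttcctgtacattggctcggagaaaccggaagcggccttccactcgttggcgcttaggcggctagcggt
Cox5a (chr9:57520982-57521281, plus strand): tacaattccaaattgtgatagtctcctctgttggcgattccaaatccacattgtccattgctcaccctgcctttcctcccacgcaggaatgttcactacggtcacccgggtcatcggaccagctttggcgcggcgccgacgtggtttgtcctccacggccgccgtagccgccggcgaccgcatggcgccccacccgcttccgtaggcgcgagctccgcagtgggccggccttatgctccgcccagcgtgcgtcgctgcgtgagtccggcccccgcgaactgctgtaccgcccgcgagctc
Atp5j (chr16:84834927-84835226, minus strand): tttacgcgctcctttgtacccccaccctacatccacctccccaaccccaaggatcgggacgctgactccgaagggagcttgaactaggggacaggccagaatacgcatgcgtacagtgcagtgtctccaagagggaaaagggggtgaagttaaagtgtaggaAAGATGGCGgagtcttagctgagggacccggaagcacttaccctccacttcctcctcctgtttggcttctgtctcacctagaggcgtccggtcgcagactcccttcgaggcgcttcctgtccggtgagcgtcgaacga

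The NRF1 sequence occurred 3 times in the Sdha window, 2 times in that of Uqcrc1 and once in those of Sdhd and Atp5o. In all, 7 of the 24 subunits (29.2%) held it in a window, against 10.3% of 11607 tested genes with windows; the others were Atp5c1, Atp5h and Atp5k. The ERR sequence was found in 1 subunit, Sdhd, against 0.284% of genes. GABPA was found in Uqcrh, Uqcr11 and Atp5h (12.5%, against 8.15%) and YY1 in Atp5j and Atp5j2 (8.33%, against 5.24%). The EBF sequence was in the Cycs window only, against 1.28% of genes, and the PPAR sequence in 0 of 24, against 0.0603%. Subunits with the NRF1 sequence included ones that rose strongly (Uqcrc1, 1.16; Sdha, 1.00) and ones that did not pass (Atp5h, 0.52; Atp5c1, 0.51), as log2 fold changes. In 12 of the 24 subunits no window held any of the 6 sequences, among them Cox5a (1.04), Sdhb (1.02) and Uqcrfs1 (0.94), whose log2 fold changes exceeded that of Atp5o (0.85). A match is a stretch of letters and does not show binding.

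Among the known regulators of these genes, 5 of 15 tested rose and 0 fell. The nuclear receptor genes Esrrg and Ppara had log2 fold changes of 3.14 (SE 0.29, adjusted p from edgeR = 0.00182) and 2.51 (SE 0.36, adjusted p from edgeR = 0.00981). Ppargc1b, a coactivator of mitochondrial genes, rose by 1.37 (SE 0.26, adjusted p from edgeR = 0.0250) on the log2 scale. Esrra (0.54, SE 0.12) and Gabpa (0.42, SE 0.09) rose by less, and Gabpa overlaps Atp5j. Ppargc1a had 14.8 ± 8.24 CPM across the wild types, then 33.1 ± 11.7 CPM in Fabp4-Ebf2, and with a log2 fold change of 1.16 (SE 0.38, adjusted p from edgeR = 0.142) it did not pass. Nrf1 (-0.11, SE 0.08), Yy1 (0.01, SE 0.09), Gabpb1 (-0.16, SE 0.10), Gabpb2 (-0.02, SE 0.09) and Pprc1 (-0.07, SE 0.08) did not pass. Nor did the mitochondrial transcription genes Tfam (0.04, SE 0.08), Tfb1m (0.43, SE 0.18), Tfb2m (0.18, SE 0.11) and Polrmt (0.32, SE 0.10).

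The rest of the pathway gives the setting for these subunits. Of 36 complex I subunits, 29 rose and 0 fell. Their median log2 fold change was 0.71, the same to 2 decimals as that of the 30. They ran from Ndufb3 (0.18, not passing) and Ndufa7 (0.39) to Ndufb8 (1.17) and Ndufv1 (1.18), the last encoding the NADH-binding subunit. Of 18 tested other subunits of complexes IV and V, many of them tissue isoforms, 7 rose and 0 fell. Their median was 0.49. Their extremes were the muscle and brown fat isoforms Cox7a1 (3.58, SE 0.43) and Cox8b (1.77, SE 0.33) at the top and, not passing, Cox6a2 (-0.59, SE 0.33) and the c-subunit gene Atp5g1 (-0.51, SE 0.18) at the bottom. Assembly factors, which build the complexes without being part of them, had lower medians. For complexes II, III, V and cytochrome c, 3 of 12 rose, 0 fell and the median was 0.35. They ran from Sdhaf1 (-0.04) and Acn9 (0.05), neither passing, to Atpaf2 (0.85, SE 0.17) and Uqcc (1.09, SE 0.15). For complex IV 2 of 14 rose, 0 fell and the median was 0.26, from Fam36a (-0.10) and Cox16 (-0.05), neither passing, to Taco1 (0.67, SE 0.16, not passing) and the copper chaperone Cox17 (0.75, SE 0.15). The subunits encoded by mitochondrial DNA are not analysed here.

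**Figure D5:**
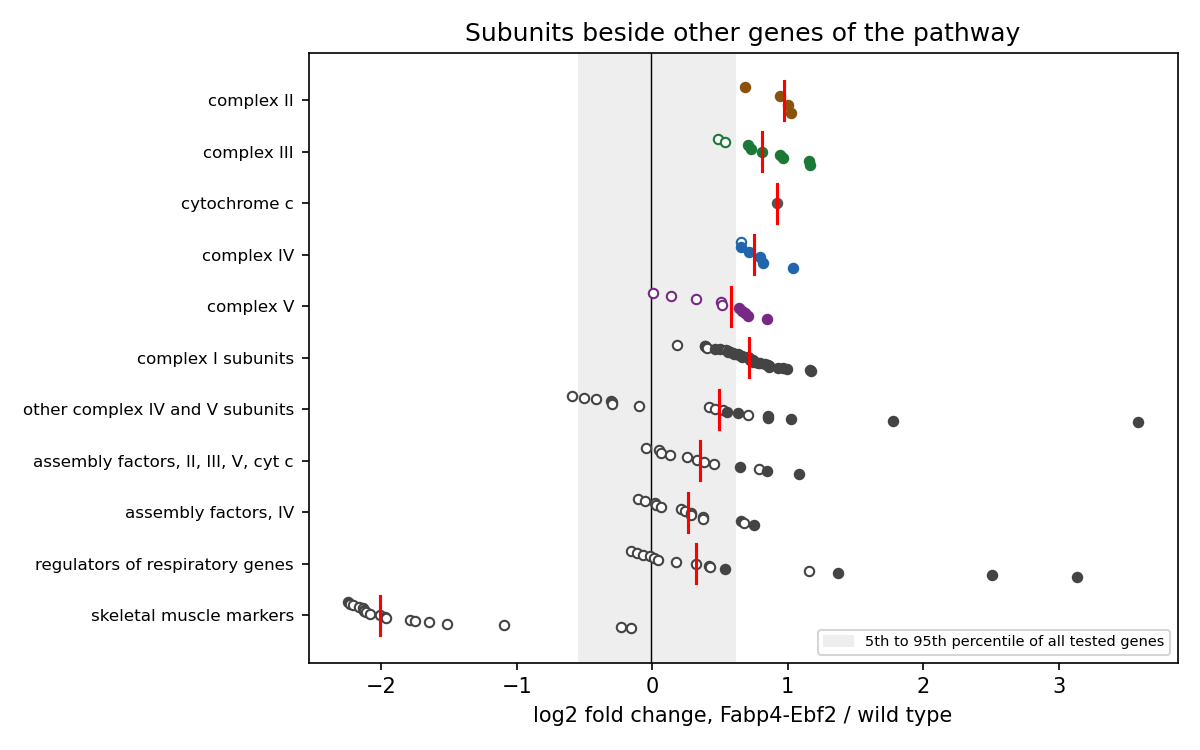
Each point is the log2 fold change of 1 gene, filled where it passed the test, and red bars are medians of each list; the grey band holds the 5th to 95th percentile of all tested genes, -0.54 to 0.61. All 4 complex II genes lie beyond the band at the high end, whereas complex V reaches from 0.01 to 0.85 and the muscle markers lie below 0.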

How the data were processed

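Polyadenylated RNA, extracted with TRIzol, was sequenced from TruSeq libraries, per the labels. The deposited table held raw counts of reads for each of 28644 RefSeq transcripts, which the authors made on mm9 per the submitters' processing notes. For the aligner and counter, the sources used here give no name. The authors' edgeR log2 fold change and FDR (an adjusted p-value) were deposited in the same table per the file headers. A further 8 per-sample columns were not used.

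Each gene was represented by the row marked best, else that with most reads. The test was edgeR's quasi-likelihood F test (version 4.0.16, R 4.3.3; glmQLFit, glmQLFTest) on genotype alone, after TMM and filterByExpr, which left 15002 genes. Standard errors were the absolute log2 fold change over the square root of F. The biological coefficient of variation was 18.7%, and 3 reads corresponded to 0.116 to 0.178 CPM; these floors cover counting error only. Within groups, libraries differed by more than sampling noise. Same-numbered libraries had deviations correlated at -0.133, 0.331, 0.142 and 0.0574. No consistent pairing by number was seen, though so few values cannot exclude one. Alternatives were DESeq2 1.42.0, limma-voom (limma 3.58.1), other scalings, no filter, the row with most reads, a replicate block and each library left out. Leaving out wild type replicate 1 and Fabp4-Ebf2 replicate 2 together was added after seeing the data. The members and lists were chosen with earlier results of these data known. Named genes were all members, with every library's value for the extremes of each complex, Sdha and those not passing, the 2 highest and lowest of each pathway list, all regulators, Ebf2 and Ucp1. Casq1, Retn, Cfd, Atp5a1, Atp5b, Atp5g2, Atp5g3, Atpif1, Usmg5 and Sdha's full values were added after values were seen. So were Cox4i1, Cox4i2, Cox6a1, Cox6b2, Cox7a2, Cox7a2l, Cox8a and Ndufa4. The procedure was tested on simulated data. Figures used matplotlib 3.10.9.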

Additional observations from a re-analysis of the deposited data

Results flagged for a closer look

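Among 63 named genes in 2 groups of 4 libraries (126 tests), 15 had 1 library far from the other 3, its gap to the nearest being over Dixon's 95% critical share of the group's range. Chance gives such a gap in about 1 of 20 groups, and the genes share libraries, so the tests are not independent. In 12 of the 15 the library was Fabp4-Ebf2 replicate 3, and it was the highest each time. In complexes II and III these were Sdhc at 325 CPM against 226 to 239.7, Sdhd at 417 CPM against 287 to 308, Uqcrh at 344 CPM against 244 to 257, Uqcrq at 318 CPM against 201 to 215 and Uqcr10 at 240.0 CPM against 169.6 to 178 CPM in the other 3 libraries. In complexes IV and V they were Cox6b1 at 526 CPM against 371 to 380.2, Cox7b at 262 CPM against 164 to 178, Atp5d at 333 CPM against 262 to 267, Atp5j2 at 238 CPM against 161 to 168 and Atp5k at 142 CPM against 87.7 to 94.3 CPM. The others were Tfb1m at 17.6 CPM against 9.85 to 10.9 and Cox8b at 398 CPM against 173 to 206 CPM.

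Of the remaining 3, Atp5f1 in wild type replicate 2 was low at 149 CPM against 161 to 162 CPM, and Atp5j2 in wild type replicate 1 was low at 112 CPM against 116.9 to 117.3 CPM, both within a narrow range. Ucp1 in wild type replicate 1 was high at 98.5 CPM against 9.26 to 20.3 CPM.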

How the results depend on the processing

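Over the 8 alternatives that kept all libraries (other scalings, no filter, DESeq2, limma-voom, the row with most reads and a replicate block), none of the 22 calls was lost and the count ran from 22 to 26. Scalings moved the median of all genes by -0.05 at most. The replicate block gave 24 subunits, 475 higher and 123 lower genes, and with it 7 complex V subunits. DESeq2 called 843 genes higher and 368 lower, and 5 factors in each assembly list. Without wild type replicate 1 and Fabp4-Ebf2 replicate 2 together, 20 subunits rose, 3 of them in complex V, and 164 genes fell. Leaving out 1 library at a time, 63 of 176 values of called subunits lost the call and none changed sign. Counts then ran from 6 to 24 subunits, from 2 to 4 (complex II), 1 to 7 (III), 1 to 5 (IV) and 2 to 7 (V). They ran from 3 to 31 for complex I, 1 to 9 for the other complex IV and V subunits, and 1 to 4 and 0 to 4 for the assembly lists. Over all genes they ran from 88 to 662 higher and 22 to 256 lower. The cause of these changes was not tested. Changes of sign occurred for Atp5j and Atp5l, neither called: Atp5j at -0.00141 with RLE factors, -0.0365 with upper-quartile factors, -0.0435 with none, -0.0335 without wild type replicate 2 and -0.0689 without Fabp4-Ebf2 replicate 3, and Atp5l at -0.0516 without the latter. With each library left out in turn their highest values were 0.0469 and 0.287. Among the chosen subunits, depth limits Atp5l, Cox7c and Cycs, at 57 to 388 reads per library.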

Other observations

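Among the 30 subunits, longer transcripts had higher log2 fold changes, with a Pearson correlation of 0.47 and a Spearman correlation of 0.48 against log2 transcript length. Over 14705 tested genes with a length the values were 0.04 and 0.09. The log2 fold change also went with the mean level of the 30 (Pearson 0.43, Spearman 0.53). These are descriptions across genes of the same libraries, which are not independent replicates.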
